A study of Mus musculus with 3 samples.

Results

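The cytosolic ribosomal protein genes of mature medullary thymic epithelial cells were described across 3 mouse genotypes. Members were taken by gene symbol from the platform's probe-to-gene table: symbols of the form Rpl or Rps with a number and at most a short suffix, together with Rplp0, Rplp1, Rplp2 and Rpsa, and without the S6 kinase genes. This rule found 61 genes among the 19937 genes with a probe set of their own, 38 of the large subunit and 23 of the small subunit. Of 77 canonical ribosomal protein genes listed for mouse, 54 were members. A further 16, among them Rpl3, Rpl11 and Rps24, lay only on probe sets with several symbols and were not named from them, and 7 were not analysed here. The other 7 members are paralogues or retained copies. Each gene was represented by its brightest probe set.

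The AireKO library came from Aire-/- mice. The Sirt1cKO library came from Sirt1fl/fl mice that carried Foxn1-Cre, a recombinase active in thymic epithelium. The WT library came from Sirt1fl/fl mice without Cre, so WT and Sirt1cKO share the floxed allele, which the labels do not give for AireKO. All mice were labelled C57b/6 and 6 weeks old, and cells of typically 3 mice were pooled, sorted as EpCAM+, CD45-, Ly51 low and MHC-II high, and their amplified RNA was run on Affymetrix Mouse Gene 1-ST arrays. With 1 library per genotype there is no replicate error and no p-value, and each difference describes 2 libraries. The number of arrays limits the precision.

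Some facts of the series bear on every value below. The free-text descriptions of AireKO and Sirt1cKO name each other's genotype, and groups follow the titles and the genotype field. AireKO and Sirt1cKO stand throughout for the library labelled so. The deleted genes do not settle the labels. Aire stood at log2 11.55 in AireKO and 11.24 in Sirt1cKO, against 11.97 in WT, and Sirt1 at 11.42 and 11.27, against 11.40 in WT, so both were lowest in Sirt1cKO. Where their probes lie relative to the deleted parts is not given in the labels. Xist stood at 6.75 in AireKO and 11.46 in Sirt1cKO, against 12.17 in WT, and the Y-linked gene Eif2s3y at 9.75 and 8.92, against 4.23 in WT. Sirt1cKO thus carried both signals, each knockout differed from WT in the Y-linked one, and genotype and sex-linked signal cannot be told apart. Background, defined below, was set for each library, at log2 6.90 in AireKO, 6.34 in Sirt1cKO and 6.02 in WT. Counts of markers above it therefore also depend on these unequal cut-offs. Of 12 listed markers of mature medullary epithelium on the array, all 12 were above background in each library, with a summed intensity of 45890 in AireKO, 48480 in Sirt1cKO and 60557 in WT. Erythroid and neutrophil markers summed to 997.3 in AireKO, with 3 of 7 above background, to 2318 in Sirt1cKO, with 6 of 7, and to 4502 in WT, with 7 of 7. The neutrophil gene Ly6g stood at 6.58 and 9.62, against 10.97 in WT, while Alas2, the 1 erythroid marker on the array, stood at 7.89 and 7.92, against 7.73 in WT. Stromal and endothelial markers summed to 4986, 2797 and 2151 in the same order of libraries, with 5, 6 and 6 of 8 above background, and without the fibroblast gene Dcn to 952.8, 924.0 and 1068. Thymocyte markers summed to 2264, 2154 and 1813, with 7, 8 and 8 of 12. Cortical epithelial markers summed to 12569, 14824 and 18397, with 5, 6 and 7 of 7 above background. Among them Cxcl12, at 6.17 in AireKO, 6.16 in Sirt1cKO and 6.12 in WT, counted in WT alone. Dendritic, macrophage and B cell markers summed to 1501, 1411 and 1582, with 4, 6 and 7 of 9. The part of these differences in the ribosomal protein values was not tested, and in sorted bulk cells fewer cells of a type and less RNA per cell cannot be told apart.

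Each ribosome is built from a small subunit, which decodes the mRNA, and a large subunit, which joins amino acids and releases the growing chain through a tunnel. In mammals most of their proteins are encoded by 1 expressed gene each, made in step with one another and assembled with ribosomal RNA in the nucleolus. Their mRNAs typically begin with a C followed by a run of pyrimidines, the terminal oligopyrimidine or TOP element, through which mTOR signalling controls their translation. These genes also left many processed pseudogenes in the mouse genome, and probe sets that share sequence with such copies cannot be assigned to the parent gene with certainty.

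The start regions of 9 members are printed because they show this shared element beside starts that lack it. They are taken from RefSeq (GRCm38.p6), whose promoter table as used here held entries for 49 of the 61 members. Some members have several annotated starts there, Rps21, Rps19 and Rpl3l among those printed, and a single start is printed for each gene. The other listed start of Rps21 holds no tract. Each window runs from 40 bases before the annotated start to 15 bases from it, on the gene's own strand, and capitals mark the pyrimidine tract, or the single first base where there is no tract. The first 5 windows hold a tract at the annotated start, the next 2 belong to members that were well below WT, and the last 2 to paralogues with tissue-restricted expression. They lie at chr4:86857353-86857407 (Rps6, minus strand), chr17:27635230-27635284 (Rps10, minus), chr17:33955651-33955705 (Rps18, minus), chr2:180257339-180257393 (Rps21, plus), chr7:141447611-141447665 (Rplp2, plus), chr7:99483695-99483749 (Rps3, minus), chr7:24884552-24884606 (Rps19, plus), chr12:66284387-66284441 (Rpl10l, minus) and chr17:24727786-24727840 (Rpl3l, plus).
Rps6: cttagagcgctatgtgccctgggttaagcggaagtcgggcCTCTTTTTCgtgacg
Rps10: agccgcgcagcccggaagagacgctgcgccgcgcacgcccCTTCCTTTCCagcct
Rps18: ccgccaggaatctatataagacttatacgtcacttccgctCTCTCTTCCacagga
Rps21: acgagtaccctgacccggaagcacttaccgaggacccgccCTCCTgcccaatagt
Rplp2: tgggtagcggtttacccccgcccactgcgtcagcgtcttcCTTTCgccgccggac
Rps3: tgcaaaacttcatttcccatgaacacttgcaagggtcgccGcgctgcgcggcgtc
Rps19: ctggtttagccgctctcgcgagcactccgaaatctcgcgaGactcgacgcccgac
Rpl10l: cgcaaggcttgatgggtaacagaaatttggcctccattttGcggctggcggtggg
Rpl3l: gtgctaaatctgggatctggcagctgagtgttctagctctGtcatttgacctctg

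Most members gave bright signals in all 3 libraries. Background was taken as the 95th percentile of 1015 olfactory receptor genes, log2 6.90 in AireKO, 6.34 in Sirt1cKO and 6.02 in WT, and 56 of the 61 members lay above it in every library. Genes counted as measured if at least 1 library reached 6.81, the overall median signal, which kept 57 members, 34 of the large and 23 of the small subunit. The median of these 57 was 10.97 in AireKO and 10.93 in Sirt1cKO, against 11.20 in WT. Rps6, the S6 kinase substrate of the small subunit, had the brightest probe set, at 14.21 in AireKO and 14.09 in Sirt1cKO, against 14.05 in WT. Rpl10a and Rpl28, both large subunit proteins, followed at 13.35 and 13.39 in AireKO, 13.30 and 13.35 in Sirt1cKO, and 13.44 and 13.32 in WT. Brightness of a probe set also depends on its probes, so this is an order of signals and not of transcript amounts.

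The dimmest members were tissue-restricted paralogues. Rpl3l, the muscle paralogue of Rpl3, stood at 5.09 in AireKO and 4.98 in Sirt1cKO, against 4.68 in WT. Rpl10l, which replaces Rpl10 during male meiosis, stood at 5.29 and 5.56, against 5.69 in WT. Rpl39l, a paralogue enriched in testis, stood at 4.62 and 4.10, against 4.24 in WT. All 3 were within background in every library, so no fold is given for them. Rpl12 was within background in AireKO, at 6.49, and above it in Sirt1cKO, at 6.58, and in WT, at 6.77. Rpl7a, at 6.87 in AireKO, passed as measured through that library alone although it lay within the higher background there, and its values of 6.35 in Sirt1cKO and 6.17 in WT lay above theirs. Its difference of 0.71, the highest in AireKO minus WT, therefore carries no fold.

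**Figure D1:**
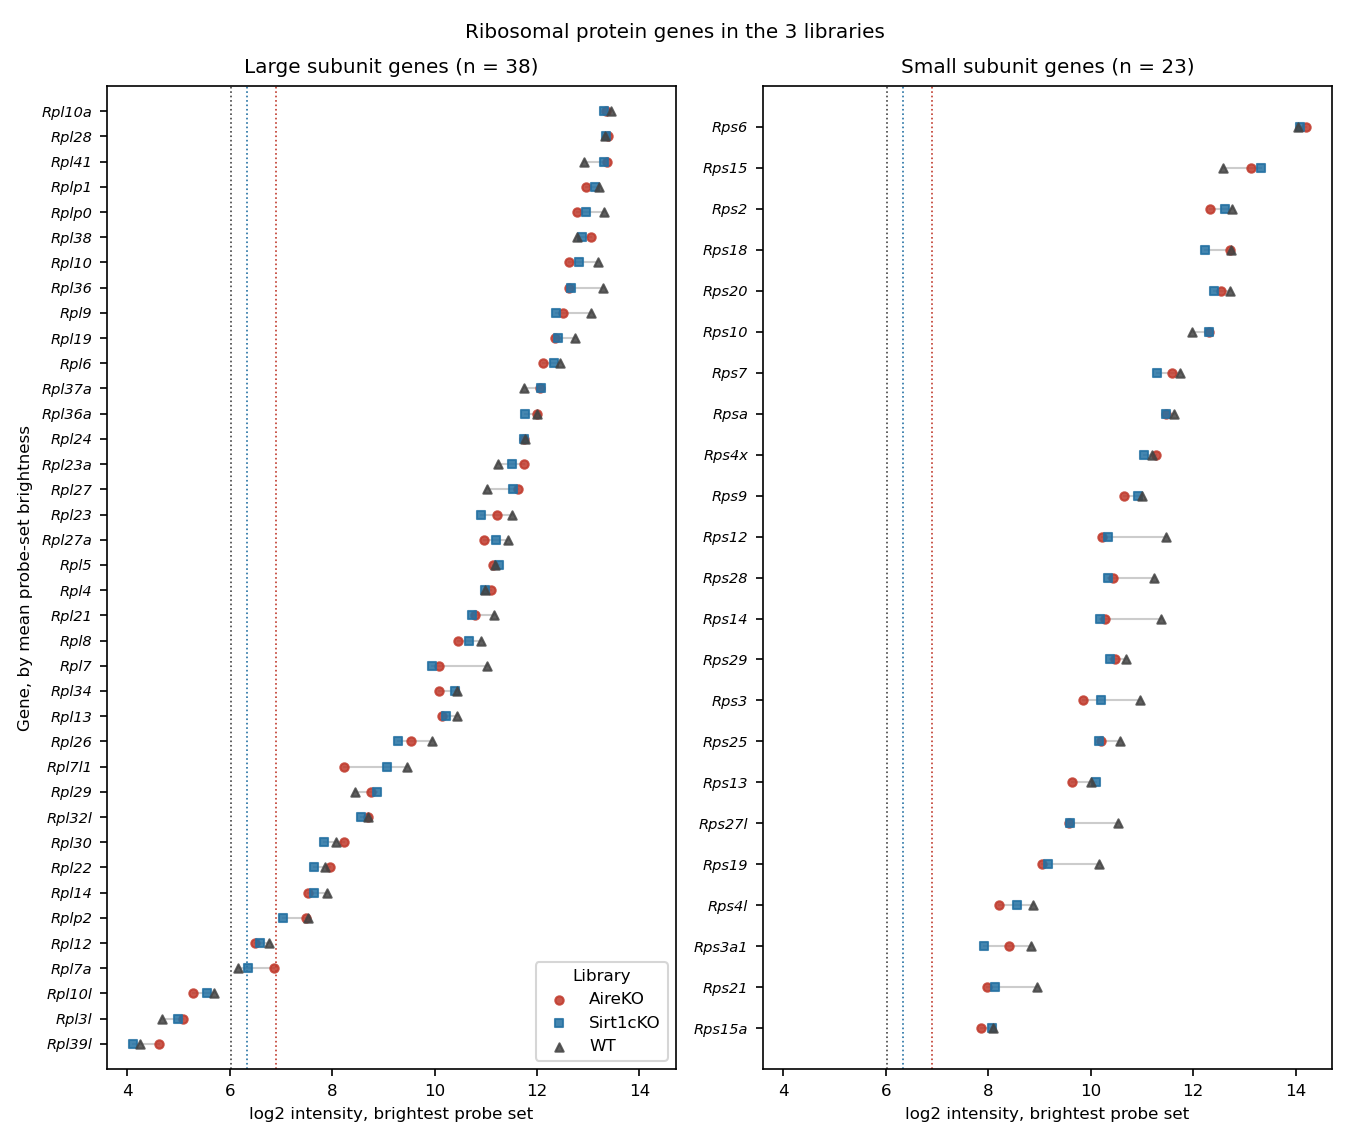
Log2 intensity of the brightest probe set (x axis) for the 38 large subunit and 23 small subunit genes (y axis, ordered by mean brightness) in the AireKO, Sirt1cKO and WT libraries, 1 point per library, with dotted lines at each library's background in the same colour. Rps12, Rps14, Rps19, Rpl7 and Rps27l show the AireKO and Sirt1cKO points close together and WT higher, while Rpl3l, Rpl10l and Rpl39l lie left of all 3 background lines.

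AireKO was first set against WT. Aire is the regulator of tissue antigen expression in these cells. Rps12, Rpl7l1, Rps3, Rps19 and Rps14 were at least 2-fold lower in AireKO than in WT and 0 members were at least 2-fold higher. These 5 are 8.77% of the 57 measured members, while of the 12556 measured genes 8.46% passed 2-fold on the lower side and 2.68% on the higher side, so the share of members is close to that of all genes. The members ranged from -1.26 to 0.71 on the log2 scale with a median difference of -0.29, and 41 of the 57, or 71.9%, were below 0. Over all measured genes the median was -0.19 and 63.7% were below 0. Among the 1275 measured genes whose mean level lay in the interquartile range of the members, from 9.91 to 12.50, the median was -0.20 12.1% were at least 2-fold lower and 3.92% higher. The middle of the members was narrower than that of these genes, with an interquartile range of 0.55 against 0.86.

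Small subunit genes made up 4 of the 5 at least 2-fold lower in AireKO. That is 17.4% of the small and 2.94% of the large subunit genes measured, beside 8.46% of measured genes. Rps12, a small subunit protein known in Drosophila for its part in cell competition, stood at 10.22 in AireKO against 11.47 in WT, 2.39-fold lower, but by the mean of all its probe sets it differed by -0.69 and was not 2-fold lower. Rps3, which lies at the mRNA entry channel, stood at 9.84 against 10.96 in WT, 2.17-fold lower. Rps19, whose human gene is the most frequent cause of Diamond-Blackfan anaemia, stood at 9.04 against 10.16 in WT, also 2.17-fold lower. Rps14, whose human gene lies in the region lost in the 5q- syndrome, stood at 10.27 against 11.37 in WT, 2.13-fold lower. Just short of 2-fold were Rps21, at 7.98 against 8.95 in WT, and Rps27l, at 9.57 against 10.54, both 1.96-fold lower. Rps28, at 10.43 against 11.23, was 1.74-fold lower. The 23 small subunit genes had a median of -0.37 with 19 below 0 and 8, or 34.8%, at least 1.5-fold lower. The 34 measured large subunit genes had a median of -0.17 with 22 below 0 and 3, or 8.82%, at least 1.5-fold lower. These shares stand beside 23.6% of measured genes and 27.1% of the 1275 genes of like level. The difference between the subunits was not tested.

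Large subunit genes spread to both sides of 0. Rpl7l1, a nucleolar relative of Rpl7, stood at 8.23 in AireKO against 9.46 in WT, 2.34-fold lower, and Rpl7 itself at 10.08 against 11.02. Rpl36 stood at 12.62 in AireKO against 13.29 in WT. On the higher side, Rpl27 stood at 11.63 in AireKO against 11.03 in WT, 1.52-fold higher, Rpl41, the smallest ribosomal protein, at 13.37 against 12.92, and Rpl23a, at the tunnel exit, at 11.75 against 11.24. Rpl37a, at 12.07 against 11.75, Rpl29, at 8.76 against 8.45, and the small subunit gene Rps10, at 12.32 against 11.98, differed by 0.30 to 0.34. Rps15, a protein of the small subunit head, was the highest of its subunit, at 13.14 in AireKO against 12.59 in WT. At 1.5-fold, 11 members, or 19.3%, were lower and 2, or 3.51%, higher, against 23.6% and 8.52% of measured genes and 27.1% and 11.8% of those of like level. The 2 higher members were Rpl27 and Rpl7a, and Rpl7a was within background in AireKO, so Rpl27 is the 1 of them with a usable fold. The 3 probe sets of Rpl27 ran from 0.002 to 0.60. By their mean it differed by 0.37 and was not 1.5-fold higher.

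The shift depended on the scaling. When libraries were centred on their measured-gene medians, all AireKO differences moved by 0.27, the members' median became -0.022 and 0 members were at least 2-fold lower. The split over all measured genes then turned to 4.36% lower and 5.62% higher, and after loess it was 6.04% and 3.46%. After loess the members' median was -0.15 against -0.02 for the genes of like level, and Rps12 alone remained at least 2-fold lower.

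**Figure D2:**
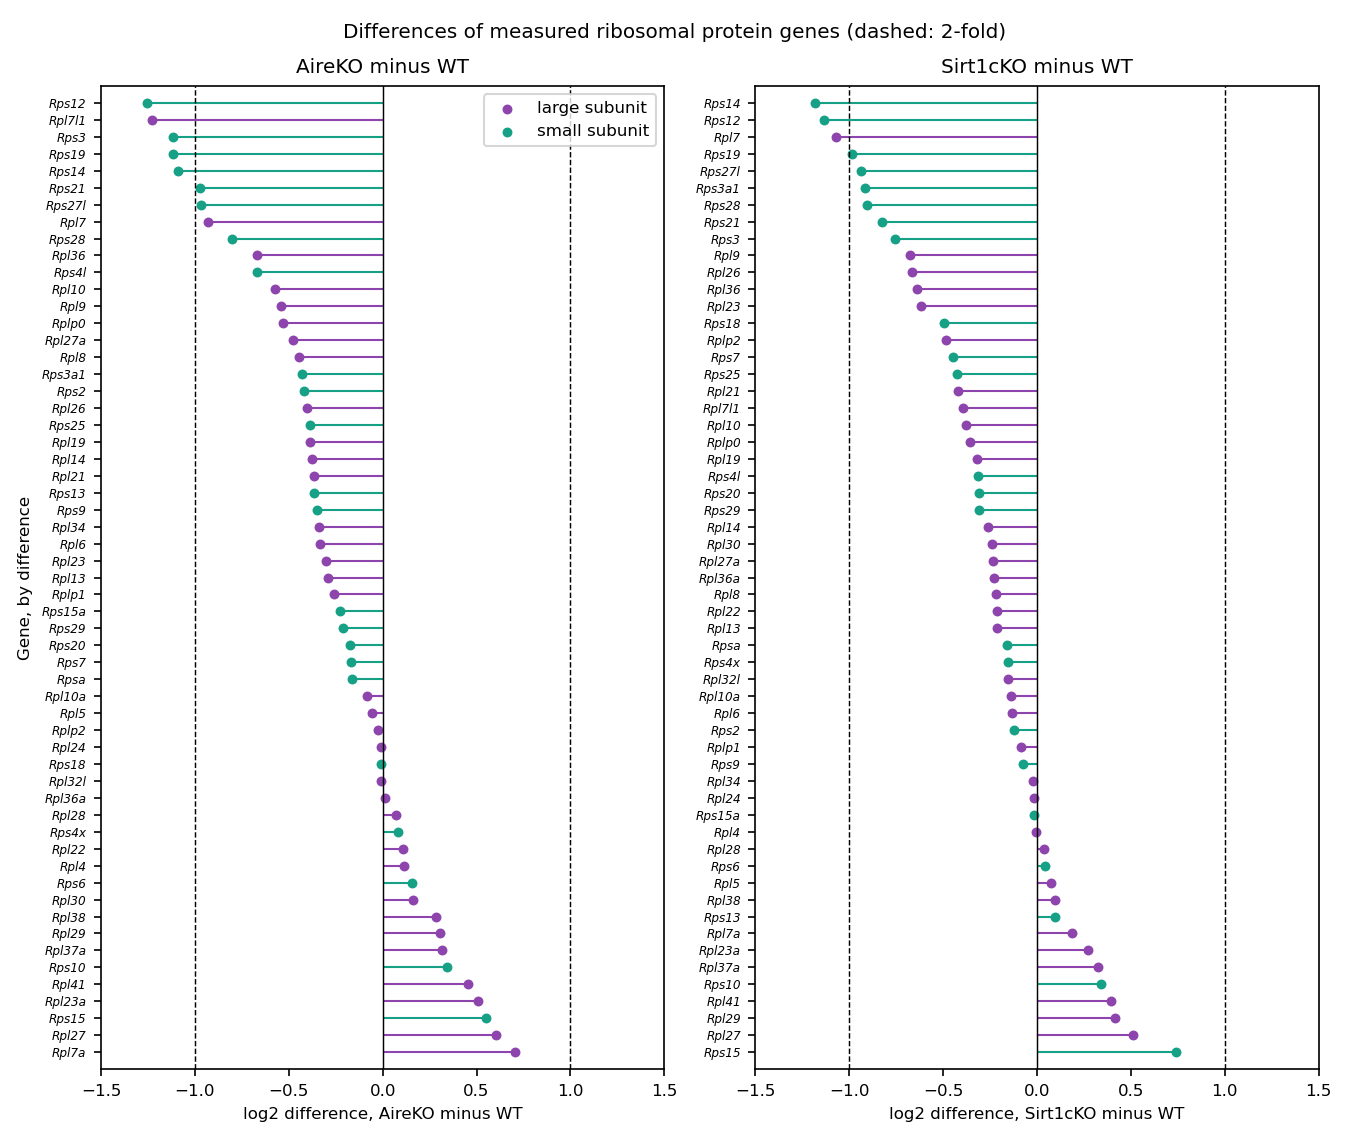
Log2 difference from WT (x axis, 1 value per gene from 1 library each) of the 57 measured ribosomal protein genes (y axis, ordered within each panel), AireKO minus WT on the left and Sirt1cKO minus WT on the right, coloured by subunit, with dashed lines at 2-fold. In AireKO 5 genes pass the lower line and in Sirt1cKO 3 do, and 0 pass the upper line in either panel.

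Sirt1cKO was next set against WT. Sirt1 is an NAD-dependent protein deacetylase. This comparison shares the WT library with the first, so these differences are not independent of those above. Rps14, Rps12 and Rpl7 were at least 2-fold lower in Sirt1cKO than in WT, which is 5.26% of the measured members, and 0 were at least 2-fold higher. Over all measured genes the lower share was 1.68% and the higher share 0.804%, which median centring turned to 1.18% and 1.11%. Over the genes of like level they were 1.73% and 2.04%. The members' median difference was -0.23, with 44 of 57, or 77.2%, below 0. Measured genes had a median of -0.07 with 58.4% below 0, and genes of like level a median of -0.04 with 54% below 0. At 1.5-fold, 13 members, or 22.8%, were lower and 1, or 1.75%, was higher, against 8.27% and 4.01% of all measured genes and 10.8% and 7.61% of those of like level.

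Rps14 stood at 10.19 in Sirt1cKO against 11.37 in WT, 2.27-fold lower. Rps12 stood at 10.34 against 11.47 in WT, 2.19-fold lower, and Rpl7 at 9.95 against 11.02, 2.1-fold lower. By the mean of all probe sets Rps12 differed by -0.36 and Rpl7 by -0.85, and Rps14 alone was at least 2-fold lower. Rps19 fell short of 2-fold with 9.17 in Sirt1cKO against 10.16 in WT. Rps27l, at 9.60 against 10.54, Rps28, at 10.33 against 11.23, Rps21, at 8.13 against 8.95, and Rps3, at 10.20 against 10.96, were at least 1.5-fold lower. Rps3a1, an early-assembling small subunit protein, was further from WT in Sirt1cKO, at 7.91 against 8.83, than in AireKO, at 8.40. Of the large subunit genes besides Rpl7, Rpl9, at 12.37 against 13.05 in WT, Rpl26, at 9.28 against 9.95, Rpl36, at 12.66 against 13.29, and Rpl23, at 10.90 against 11.52, also passed 1.5-fold.

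The 1 member at least 1.5-fold higher in Sirt1cKO was Rps15, at 13.33 against 12.59 in WT. Rpl27, at 11.54 against 11.03, Rpl29, at 8.87 against 8.45, Rpl41, at 13.31 against 12.92, Rps10, at 12.32 against 11.98, and Rpl37a, at 12.08 against 11.75, differed from WT by 0.33 to 0.51. Rps6 differed by 0.04 in Sirt1cKO and by 0.16 in AireKO. The small subunit median was -0.32 in Sirt1cKO with 8 of 23 genes, or 34.8%, at least 1.5-fold lower. For the large subunit the median was -0.21 with 5 of 34, or 14.7%. These shares stand beside 8.27% of measured genes and 10.8% of those of like level. The members' median was -0.17 after quantile normalization, -0.18 after loess and -0.13 after median centring, where the genes of like level stood at 0.04, 0.01 and 0.06.

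The third comparison set the knockouts against each other without WT. None of the 57 measured members differed by 2-fold, 0 lower and 0 higher in Sirt1cKO than in AireKO, while 1.04% of measured genes passed 2-fold on the lower side and 2.72% on the higher side, or 1.80% and 1.66% after median centring. For the genes of like level these shares were 0.941% and 3.76%. The members' median difference was -0.01, against 0.11 for measured genes and 0.14 for genes of like level, and their interquartile range was 0.31, against 0.50 and 0.54. At 1.5-fold, where 4.55% of measured genes were lower and 11.8% higher (3.69% and 14.2% of those of like level), Rpl7l1 was the 1 member past the threshold, at 9.06 in Sirt1cKO against 8.23 in AireKO. Next on the higher side came Rps13, at 10.09 against 9.63, and Rps3, at 10.20 against 9.84. Rps4l, at 8.55 against 8.20, and Rpl34, at 10.41 against 10.09, followed. The other 2 probe sets of Rps13 went the other way, at -0.52 and -0.32. On the lower side stood Rpl7a, at 6.35 against 6.87, Rps3a1, at 7.91 against 8.40, and Rps18, at 12.24 against 12.72. Rplp2, at 7.04 against 7.50, and Rpl30, at 7.83 against 8.23, came next there. Rpl7a passed as measured through AireKO alone and was within background there, so its difference carries no fold. Of the 7 probe sets of Rps18, 4 were lower in Sirt1cKO than in AireKO and 3 higher, up to 1.05. Across the 57 members Pearson's r of the levels was 0.99 between Sirt1cKO and AireKO, 0.97 between Sirt1cKO and WT and 0.97 between AireKO and WT. WT gave the highest of the 3 values for 39 members, or 68.4%, and for 49.2% of measured genes. The points of these correlations share the brightness of their probe sets, and over all measured genes r was 0.93, 0.95 and 0.87.

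**Figure D3:**
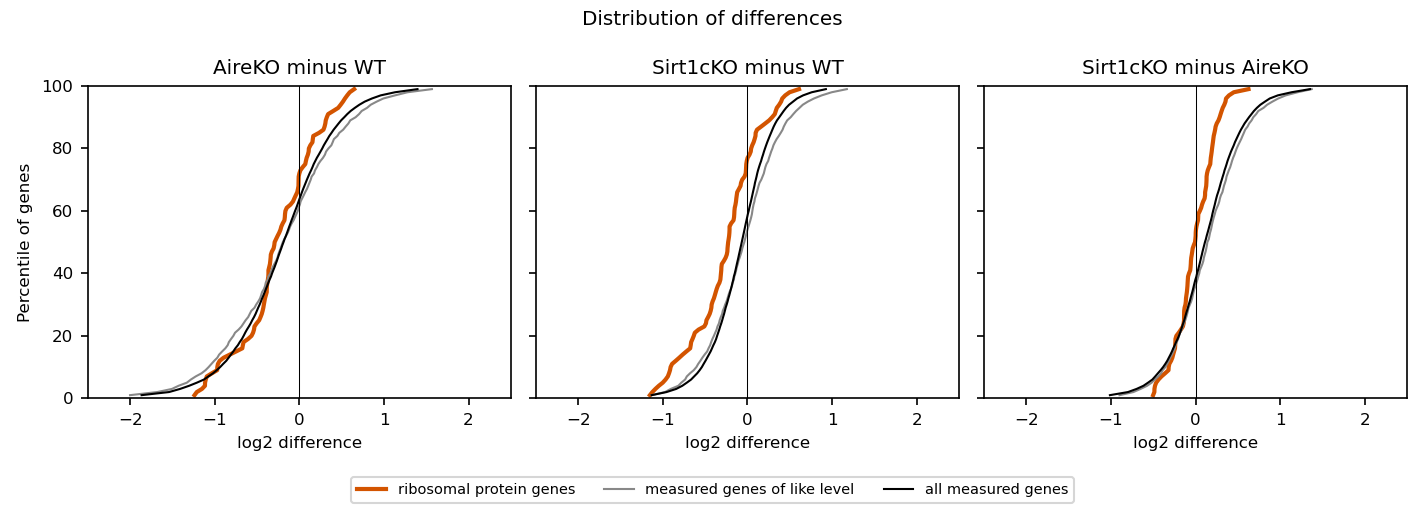
Percentiles (y axis) of the log2 difference (x axis) of the 57 measured ribosomal protein genes, of the 1275 measured genes of like level and of all 12556 measured genes, in each of the 3 comparisons of single libraries. The members' line crosses the 50th percentile at -0.29 in AireKO minus WT, at -0.23 in Sirt1cKO minus WT and at -0.01 in Sirt1cKO minus AireKO, where it is also the steepest.

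Members with related roles did not all move together. The P stalk recruits translation factors to the large subunit. Rplp0, its base, stood at 12.78 in AireKO and 12.95 in Sirt1cKO, against 13.31 in WT, and Rplp1, one of its acidic arms, at 12.95 and 13.13, against 13.22 in WT. Rplp2, the other arm, stood at 7.50 in AireKO and 7.04 in Sirt1cKO, against 7.52 in WT. All 3 were below WT in each knockout and none by 1.5-fold. Rpl5, which carries the 5S ribosomal RNA and can bind Mdm2 to stabilise p53, stood at 11.13 and 11.26, against 11.19 in WT. Its 3 probe sets above background differed more widely, from -0.80 to -0.06 in AireKO and from -0.84 to 0.22 in Sirt1cKO. Rpl11, the partner of Rpl5, lay on probe sets with several symbols.

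Of the 8 proteins listed at the exit of the nascent peptide tunnel, 4 were measured. Rpl26 stood at 9.55 in AireKO and 9.28 in Sirt1cKO against 9.95 in WT, and Rpl19 at 12.35 and 12.41 against 12.73. Rpl22, whose loss in mice impairs alpha-beta T cell development, stood at 7.96 and 7.64 against 7.86 in WT. Rpl23a, given above for AireKO, stood at 11.51 in Sirt1cKO. The median of these 4 was -0.14 in AireKO and -0.27 in Sirt1cKO. Of 15 listed genes mutated in human Diamond-Blackfan anaemia, 8 were measured. Of these, 1, Rps19, was at least 2-fold lower in AireKO and 0 in Sirt1cKO. That is 12.5% in AireKO and 0% in Sirt1cKO, beside 8.46% and 1.68% of measured genes. The medians of the 8 were -0.19 and -0.38, against -0.19 and -0.07 over all measured genes. Rpl27, at the other end, was the highest of the 8 in each knockout.

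The 3 X-linked members were below WT in Sirt1cKO, and in AireKO 1 was below it and 2 above. Rpl10, which joins the large subunit late in its maturation, stood at 12.62 in AireKO and 12.82 in Sirt1cKO, against 13.19 in WT. Rps4x stood at 11.28 and 11.04 against 11.20, and Rpl36a at 12.01 and 11.76 against 11.99. Leaving them out gave medians of -0.30 in AireKO and -0.23 in Sirt1cKO.

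Besides the 3 dim paralogues, 4 non-canonical members were measured, and each was below WT in AireKO. Rpl7l1, named above, differed by -1.23 in AireKO and -0.40 in Sirt1cKO, and Rpl7, its nearest relative, by -0.93 and -1.07. Rps27l, a p53-inducible relative of Rps27, differed by -0.97 and -0.94. Rps4l, a relative of Rps4x, stood at 8.20 in AireKO and 8.55 in Sirt1cKO against 8.87 in WT, while Rps4x differed by 0.08 and -0.16. Rpl32l stood at 8.70 and 8.56 against 8.71 in WT. With the 53 canonical measured members alone the medians were -0.26 in AireKO and -0.22 in Sirt1cKO. At least 2-fold lower were 4 genes, or 7.55%, in AireKO and 3, or 5.66%, in Sirt1cKO. These shares stand beside 8.46% and 1.68% of measured genes.

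How far a single gene's difference can be read was checked on its other probe sets. The members had 193 probe sets with a symbol of their own, from 1 to 10 per gene, and 168 lay above background in every library. Of these 168, 117, or 69.6%, were below WT in AireKO, with a median of -0.32. In Sirt1cKO 118, or 70.2%, were below WT, with a median of -0.24. Over all measured genes, each by its brightest probe set, 63.7% were below WT in AireKO and 58.4% in Sirt1cKO. Among the 28 genes with at least 3 such probe sets, the range within a gene had a median of 0.91 in AireKO minus WT and 0.69 in Sirt1cKO minus WT. In AireKO 11 of the 28 genes had all probe sets below WT, 4 had all above and 13 were mixed. In Sirt1cKO 9 were all below, 4 all above and 15 mixed.

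Some genes kept 1 direction across their probe sets. All 7 probe sets of Rpl9 were below WT in each knockout, from -0.71 to -0.09 in AireKO and from -0.90 to -0.41 in Sirt1cKO. All 3 of Rps15 were above WT in each, from 0.20 to 0.55 in AireKO and from 0.13 to 0.74 in Sirt1cKO. Rps6 had 6 of 7 probe sets above WT in AireKO, up to 0.88, and 7 of 7 in Sirt1cKO. All 6 of Rps12 were below WT in AireKO, from -1.26 to -0.37, while in Sirt1cKO they ran from -1.13 to 0.14 with 5 of 6 below, and its brightest probe set was the lowest in each.

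For others the brightest probe set differed from the rest in size or direction. Rps18, at -0.01 in AireKO by its brightest probe set, had all 7 below WT, down to -2.25, and from -1.20 to -0.22 in Sirt1cKO. Rps2, at the mRNA entry channel, differed by -0.42 in AireKO at its brightest probe set and by -2.09 at another, with 3 of 3 below WT. The other probe set of Rps14 differed by -2.65 in AireKO, at 7.98 against 10.63 in WT, and by -2.09 in Sirt1cKO. Rpl23a, at 0.51 by its brightest probe set, had 6 of 9 below WT in AireKO and 7 of 9 in Sirt1cKO. Rpl27a, at -0.24 in Sirt1cKO by its brightest probe set, had its other 6 above WT there, up to 0.71. Rps13 and Rps25, at -0.37 and -0.39 in AireKO by their brightest probe sets, had 2 of 3 and 3 of 5 above WT there. Rpl36 had 2 of 7 above WT in AireKO and 1 of 7 in Sirt1cKO, at 1.10. Rps28 had 1 of 5 above WT in each knockout, at 0.21 in AireKO and 0.26 in Sirt1cKO. Rps3, Rps19, Rpl7l1 and Rps27l had 1 probe set each, so no such check was possible for them.

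**Figure D4:**
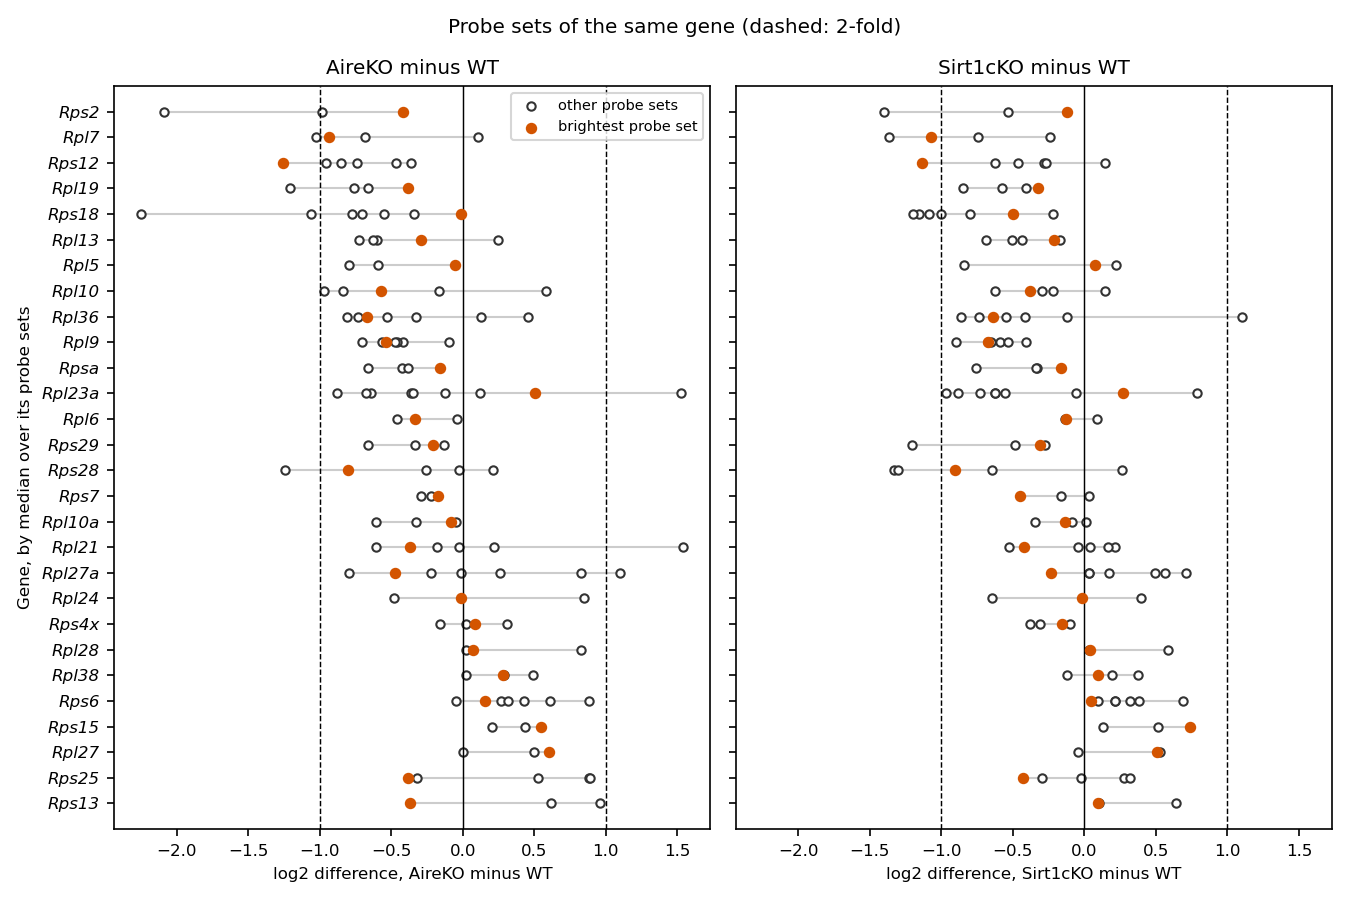
Log2 difference from WT (x axis) of every probe set above background in all 3 libraries, for the 28 genes with at least 3 of them (y axis, ordered by their median in AireKO minus WT), AireKO minus WT on the left and Sirt1cKO minus WT on the right; filled points are the brightest probe set of the gene, open points the others, and dashed lines mark 2-fold. Rps12 and Rpl9 lie left of 0 in AireKO with all their points and Rps15 right of it, while Rpl21, Rpl23a and Rpl27a span from below -0.50 to above 1 there.

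The printed start regions were set beside the differences. A tract of C followed by at least 4 pyrimidines began exactly at an annotated start in 10 of the 49 members with an entry, or 20.4%, against 3.01% of all 27025 genes in the table. The 49 members had 58 entries, and for this and each motif below a gene counted if any of its entries held it. Within the 300 bases of an entry, CCGGAAG on either strand, an ETS-type motif, was found in 38.8% of members and 9.93% of all genes. ATGGCGG, a YY1-type motif, was found in 16.3% and 4.69%, and GGGCGG, an SP1-type motif, in 59.2% and 38.2%, each on either strand. TATAA between 40 and 15 bases before the start was found in 4.08% of members and 4.22% of all genes. ATGGCGG and GGGCGG both end in GGCGG, and neither contains the other.

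Of measured members, the 10 with a tract at the start had a median of -0.01 in AireKO, from -0.97 for Rps21 to 0.34 for Rps10. The 35 with an entry but no such tract had a median of -0.34, from -1.26 to 0.71. In Sirt1cKO the medians were -0.08 and -0.21. Members with the same element thus lay on both sides of 0. Rps18, among the 10, enters at -0.01 in AireKO by its brightest probe set, while all 7 of its probe sets were below WT. The difference between members with and without the tract was not tested. Annotated starts can be displaced by some bases, so a start without the tract says only that these letters are not at that position.

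Genes that make or control ribosomes were described from lists. Fau, whose product includes a small subunit protein and which the symbol rule leaves out, stood at 11.62 in AireKO and 12.07 in Sirt1cKO, against 12.59 in WT. The RNA polymerase I list, which covers transcription of ribosomal RNA, had 14 of 15 genes measured with 1 at least 2-fold lower and 0 higher in AireKO, 0 of either in Sirt1cKO, and medians of -0.19 and 0.00, against -0.19 and -0.07 over all measured genes. That is 7.14% lower in AireKO, where 8.46% of measured genes were. The 1 lower gene, the polymerase subunit gene Polr1c, stood at 8.15 in AireKO and 8.72 in Sirt1cKO, against 9.53 in WT. Of 55 measured ribosomal RNA processing and assembly genes, AireKO had 2 at least 2-fold lower and 1 higher, and Sirt1cKO had 1 lower and 0 higher, with medians of -0.24 and -0.07. The lower shares of 3.64% and 1.82% stand beside 8.46% and 1.68% of measured genes. Imp3, of the early small subunit processome, differed by -1.34 and -1.06, the helicase gene Ddx47 by -1.26 and -0.84, and Riok2, a kinase of late small subunit maturation, by 1.41 and 0.59.

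Of 17 measured genes for the control of ribosomal protein mRNAs and growth, 0 were at least 2-fold lower or higher in either knockout. Of all measured genes 8.46% were lower and 2.68% higher in AireKO, and 1.68% and 0.804% in Sirt1cKO. The medians of the 17 were -0.27 in AireKO and -0.06 in Sirt1cKO, against -0.19 and -0.07 over all measured genes. The kinase gene Mtor differed by -0.83 in AireKO and -0.25 in Sirt1cKO, and Rheb, its activator, by -0.83 and -0.97. Of 12 measured translation factors and other genes with TOP mRNAs, 1 was at least 2-fold lower in AireKO, the elongation factor gene Eef2, at 11.71 against 12.89 in WT, and 0 were lower in Sirt1cKO, where it stood at 12.04. This share of 8.33% in AireKO is close to the 8.46% of measured genes. The medians of the list were -0.22 in AireKO and -0.15 in Sirt1cKO.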

How the data were processed

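Libraries of sorted cells were hybridised to 1 array per genotype. The authors deposited 1 linear intensity for each probe set and library. RMA is named in the submitters' processing notes, while its software, version and the return to a linear scale are not stated in the sources used. The median intensity was 116.4 in AireKO, 111.2 in Sirt1cKO and 107.8 in WT. Log2 was taken here, with no further normalization. Of 34760 probe sets, 21640 had 1 gene symbol, 1321 had several, and the brightest by mean over the 3 libraries stood for a gene. Columns of values without a sample numbered 0.

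Members, lists and named genes were chosen with earlier results of these data known. Named members were the paralogues, the 8 lowest and 8 highest differences from WT, the 5 lowest and 5 highest between the knockouts, the 3 brightest and 3 dimmest, Rps6, and members of the P stalk, 5S particle, tunnel exit and X chromosome. Others, such as Rps2, Rps25, Rpl9, Rpl36, Rpl23, Rpl27a, Rpl21 and Rpl12, were named after their values were seen. Of each other list up to 4 genes were taken. No test was run, since each group has 1 library. The alternatives were quantile normalization, loess (span 0.3), median centring, the mean of all probe sets, canonical members alone, exchanged knockout labels and thresholds of 1.5-fold and 3-fold. A wider range of the members' levels had been planned for the genes of like level. The interquartile range used in its place, the members with 1 or 2 probe sets and the removal of X-linked members were added after the data were seen. The planned relation to protein length was not analysed here. The code was tested on simulated data. Python 3.11.15, numpy 2.4.6, pandas 2.3.3, statsmodels 0.14.6 and matplotlib 3.10.9 were used.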

Additional observations from a re-analysis of the deposited data

How the results depend on the processing

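No paired analysis was possible because each genotype has 1 library. With no replicates, a median was read as moved at a change of at least 0.1 on the log2 scale. In AireKO minus WT the members' median of -0.29 became -0.16 after quantile normalization, -0.15 after loess and -0.022 after median centring. The large subunit median of -0.17 became 0.10 after median centring, a change of sign. The small subunit median of -0.37 became -0.22, -0.19 and -0.10 under these scalings. The 5 members at least 2-fold lower became 2, 1 and 0, 3 with the knockout labels exchanged, 11 at 1.5-fold and 0 at 3-fold, and the 0 higher became 2 at 1.5-fold, of which Rpl7a was within background. The mean of all probe sets also gave 5, with Rps2 in place of Rps12, which then differed by -0.69. In Sirt1cKO minus WT the medians moved by less than 0.1 under every alternative run. The 3 members at least 2-fold lower stayed 3 after quantile normalization and loess and became 2 after median centring, which left out Rpl7. They became 1 with the mean of all probe sets, 5 with exchanged labels, 13 at 1.5-fold and 0 at 3-fold, and the 0 higher became 1 at 1.5-fold. In Sirt1cKO minus AireKO median centring gave -0.18 for the members, -0.22 for the large and -0.17 for the small subunit, loess gave -0.10 for the small subunit, and 1 member was higher at 1.5-fold. Median centring shifts all genes by construction, by 0.27 in AireKO, 0.10 in Sirt1cKO and -0.17 between the knockouts; the causes of the other changes were not tested. Signal near background limits Rpl3l, Rpl10l, Rpl39l, Rpl12 and Rpl7a.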

Other observations

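Mitochondrial ribosomal protein genes, which build the separate ribosome that translates the mitochondrial genome, were set beside the cytosolic ones. Of 77 on the array 71 passed as measured. Their median difference from WT was -0.15 in AireKO and -0.07 in Sirt1cKO. Mrpl54 and Mrpl34 were more than 2-fold below WT in AireKO, and 0 passed 2-fold on the higher side in either knockout. Mrpl54 differed by -1.45 in AireKO and -0.93 in Sirt1cKO, and Mrpl34 stood at 8.37 and 8.69, against 9.56 in WT. The 1 gene at least 2-fold lower in Sirt1cKO, Mrpl18, chosen for naming after its values were seen, stood at 7.73 in AireKO and 7.68 in Sirt1cKO, against 8.71 in WT. At the other end, Mrpl42 stood at 7.23 in AireKO and 6.98 in Sirt1cKO, against 6.26 in WT, and Mrpl33 at 8.24 and 8.01, against 7.35. Of the 71, 2.82% were at least 2-fold lower in AireKO and 1.41% in Sirt1cKO, beside 8.46% and 1.68% of all measured genes. At 1.5-fold, 10 (14.1%) were lower and 7 (9.86%) higher in AireKO, beside 19.3% and 3.51% of the cytosolic genes and 23.6% and 8.52% of measured genes. In Sirt1cKO 8 (11.3%) were lower and 2 (2.82%) higher, beside 22.8% and 1.75% of the cytosolic genes and 8.27% and 4.01% of measured genes. The difference from the cytosolic genes was not tested.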
